A study of Oncorhynchus mykiss with 16 samples.

Results

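The transcripts described here were up-regulated between days 3 and 8 of rainbow trout preadipocyte culture. Taken as the mean of days 15 and 21, their later level then stayed close to that of day 8. They are 200 probes of the 60195 on the array, and they were chosen by their measured values. Probes lacking a deposited value and a set of probes that share a name ending were left out first. Among the rest, a probe was eligible when its signal was well above background on each array of days 8, 15 and 21. Its mean at day 8 also had to lie within 0.5 on the log2 scale of the mean of days 15 and 21. After these exclusions, 27518 probes met both conditions. In each culture the score of a probe was the lowest of its values at days 8, 15 and 21 minus its value at day 3, and the 200 probes with the highest minimum score over the 4 cultures were taken. The rise to day 8, its presence in every culture and the flat mean afterwards are therefore set by the choice and are given as a description.

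Adipogenesis is commonly divided into a proliferative phase, in which fibroblast-like precursors multiply until they touch each other, and a differentiation phase, in which they stop dividing, load lipid droplets and take on the metabolism of fat cells. In culture, differentiation is started with a hormone mixture. Insulin promotes glucose uptake and lipid synthesis, IBMX blocks the breakdown of cyclic AMP, and dexamethasone activates the glucocorticoid receptor. Transcripts of lipid storage genes typically accumulate during differentiation.

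Each culture was started from the pooled visceral fat of 6 to 7 fish and was grown at 18 °C in medium with 10% fetal bovine serum. Once the cells were confluent, at day 8, the hormone mixture was added. It held 0.25 µM dexamethasone, 0.5 mM IBMX and 10 µg/mL insulin, together with a lipid mixture at 10 µL/mL. The study calls the cells of day 3 mesenchymal stem cells and those of day 8 proliferated cells. Those taken at day 15 are termed committed preadipocytes, and those taken at day 21 are termed mature adipocytes. Whether the day 8 cells were taken before or after the change of medium is not given in the sources used here. The groups of days 3 and 8 thus share growth medium up to that change, and those of days 15 and 21 share the hormone mixture, so that time in culture, confluence and medium cannot be told apart. The cultures, numbered 4, 8, 9 and 10 in the labels, gave 1 array each per day, so n = 4 at every day and 16 arrays in all.

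On each array, 65.5% to 80.5% of spots exceeded the background clearly and none was saturated, and the number of arrays limits the precision. The arrays lay on 2 slides, and 3 of the 4 day 8 arrays were on slide 2 and 3 of the 4 day 3 arrays on slide 1. With day in the model, slide had an adjusted p below 0.05 for 1 of 42541 probes in limma. None of the 47 marker genes listed for adipocytes, stromal cells, smooth muscle, leucocytes, red cells, endothelium and dividing cells is the name of a probe. The stage names of the labels were therefore not checked against markers here. The study's primer table pairs a few genes, PCNA among them, with sequence identifiers, and these were not followed here. The study itself checked morphology daily and measured PCNA, PLIN2, ACSL1 and PEPCK by quantitative PCR and Western blot. Among other genes, it also measured GPDH by quantitative PCR and PPARγ by Western blot. In cultures of this kind, a larger share of cells with a transcript and more of it per cell cannot be told apart.

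All 200 members carry distinct identifiers and none is paired with a gene name. By the form of their identifiers, 108 (54%) are assembled transcript contigs beginning with TC, 66 (33%) are single sequence reads and 26 (13%) are database entries of single transcripts. Among all eligible probes these kinds made up 55.9%, 30.4% and 13.7%. No identifier was found in the RefSeq gene table of the assembly USDA_OmykA_1.1, so the members are named by identifier, without the ending .s.om.10 that reads and database entries have in the files. Levels are log2 of the background-subtracted signal relative to the 75th percentile of the same array, and since signal depends on the probe as well as on the transcript, levels are compared within a probe only.

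The members were higher at day 8 by a similar median amount in the 4 cultures. Of the 200 members, 4 had a spot marked as an outlier on 1 array and lack a value there, and the other 196 entered the fit over all probes. Over these 196, the median difference between day 8 and day 3 was 2.29 on the log2 scale, a ratio of 4.89, with 2.18 in culture 4, 2.43 in culture 8, 2.25 in culture 9 and 2.21 in culture 10. The median over all 42541 tested probes was -0.05. The median level of the members was 0.45, 0.47, 0.24 and 0.45 at day 8 in cultures 4, 8, 9 and 10, against -1.84, -2.24, -2.05 and -1.94 at day 3. In any single culture the difference of a member ranged between 0.91 and 6.35.

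**Figure D1:**
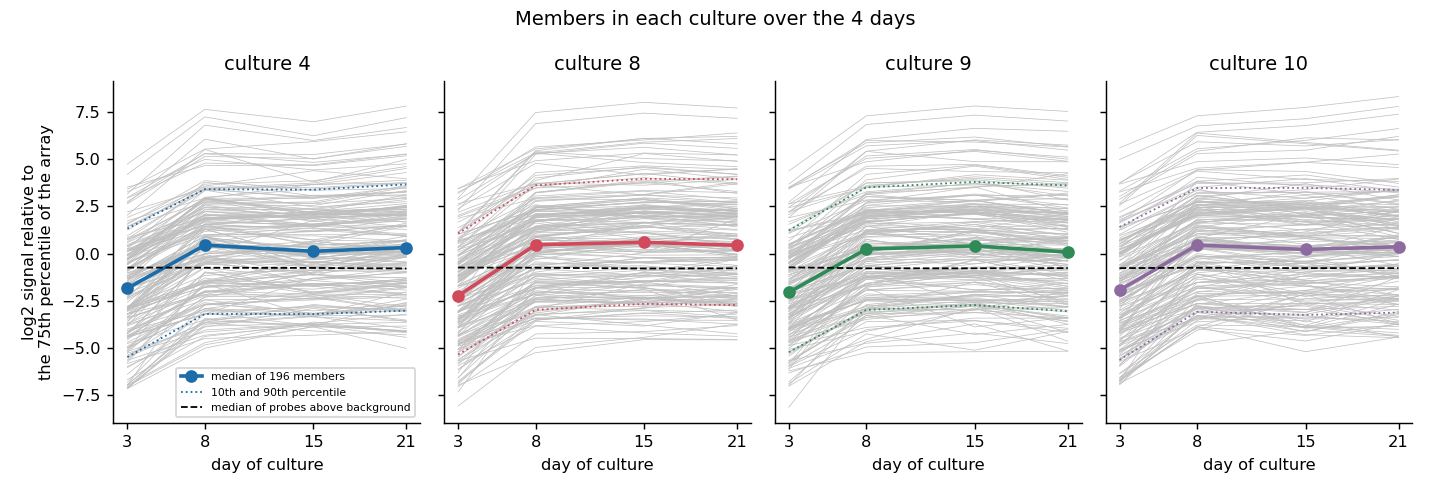
Log2 signal of the 196 members with complete values (grey lines) against day of culture, 1 panel per culture, relative to the 75th percentile of the array. The coloured median stood between 0.24 and 0.47 at day 8 and between -2.24 and -1.84 at day 3, dotted lines are the 10th and 90th percentiles, and the dashed line is the median of all probes well above background on days 8, 15 and 21.

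The slides held days 3 and 8 unevenly, and the day 3 and day 8 arrays of each culture lay on different slides. A difference within a slide therefore compares different cultures, and differences between cultures enter it. Over all days, each culture had arrays on both slides. On slide 1, with 1 array of day 8 and 3 of day 3, the median difference over the members was 2.14. On slide 2, with 3 arrays of day 8 and 1 of day 3, it was 2.34. On each slide 195 of the 196 members were higher at day 8. This contrast chose the members, so these values are a description.

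At an adjusted p below 0.02 and a ratio above 3, 170 of the 196 members (86.7%) were called higher at day 8 than at day 3 in limma with Benjamini-Hochberg adjustment, where 1.87% of all tested probes were called higher and 0.999% lower. This contrast chose the members, and nothing is read from their share. The 797 called probes included 370 that met the flat condition on their means, 204 whose mean of days 15 and 21 was higher by more than 0.5 and 223 whose mean was lower by more than 0.5. Of the 370 with a flat mean, 170 are members and 200 are not. In 190 of the 196 members each of the 12 later arrays was higher than each of the 4 day 3 arrays, where 5.56% of all tested probes showed this. The other 6 members were higher at the later days within each culture, but their groups of arrays overlapped.

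The highest scores belonged to TC125765 and to the read GAY7CUQ02I57GZ. In cultures 4, 8, 9 and 10, TC125765 had levels of -3.03, -3.89, -3.75 and -4.14 at day 3, of 1.59, 0.73, 1.04 and 1.39 at day 8, of 1.20, 1.20, 0.98 and 2.17 at day 15 and of 1.84, 1.04, 0.44 and 1.07 at day 21. The 4 day 3 arrays lay far below the 12 later ones, which were mixed among themselves. The difference between day 8 and day 3 was 4.89 ± 0.44 (SD between cultures, n = 4), a ratio of 29.7, and 3.90 with normexp background correction, which adds an offset to the signals. GAY7CUQ02I57GZ had levels of -2.90, -3.63, -3.37 and -3.59 at day 3, 1.82, 0.90, 1.14 and 1.60 at day 8, 1.41, 1.40, 1.19 and 2.36 at day 15 and 2.01, 1.24, 0.60 and 1.30 at day 21. Its cultures stood in nearly the same order as those of TC125765 on every later day, and its difference was 4.74 ± 0.31 (SD, n = 4), a ratio of 26.7, and 3.88 with normexp.

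TC100209, with the next score, had levels of -0.50, -0.55, -0.32 and -0.77 at day 3, 2.99, 2.77, 3.22 and 3.85 at day 8, 3.42, 3.11, 3.49 and 3.13 at day 15 and 3.73, 3.70, 4.24 and 3.31 at day 21 in cultures 4, 8, 9 and 10. Its day 3 values were close together, and its difference of 3.74 ± 0.59 (SD, n = 4) is a ratio of 13.3. The read FYV3OTN01CHOV8 had -1.46, -0.46, -0.74 and -2.94 at day 3, 2.36, 3.05, 2.53 and 2.92 at day 8, 2.04, 3.35, 2.51 and 3.71 at day 15 and 2.34, 3.23, 2.40 and 2.84 at day 21. Culture 10 was lowest at day 3 by over 1 log2 unit and among the higher cultures later, so that its score there was 5.74, against 3.30 in culture 9. The difference was 4.12 ± 1.19 (SD, n = 4), a ratio of 17.3.

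TC117589 and TC113245 were well above background on all 16 arrays. TC117589 had levels of 2.24, 1.47, 1.85 and 2.52 at day 8, against -1.21, -1.51, -2.02 and -2.00 at day 3, in cultures 4, 8, 9 and 10, which is a ratio of 13.0. TC113245 had 0.39, -0.68, -0.42 and 0.78 at day 8, against -3.81, -3.45, -3.61 and -4.16 at day 3, which is a ratio of 13.7, or a difference of 3.78, and 2.69 with normexp. For both, the lowest value of day 8 was more than 2 log2 units above the highest value of day 3.

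The remaining members with the 10 highest scores were dim at day 3. TC130582 had levels of -3.01, -2.40, -2.44 and -2.12 at day 8, against -6.40, -5.69, -5.91 and -5.67 at day 3, a difference of 3.42 ± 0.11 (SD, n = 4) that was 1.24 with normexp. TC126788 had -0.97, -2.22, -1.02 and -3.89 at day 8, against -7.00, -5.48, -6.14 and -6.74 at day 3, a difference of 4.32 ± 1.51 (SD, n = 4) that was 1.68 with normexp. FYV3OTN01A3UWS had -1.52, -3.25, -2.88 and -0.44 at day 8, against -5.76, -6.92, -5.33 and -6.79 at day 3, a difference of 4.18 ± 1.63 (SD, n = 4) that was 1.71 with normexp. Each of these 3 was well above background on 1 of the 4 day 3 arrays, so their differences and the spread of these rest on weakly measured day 3 levels. CA354205 had -2.11, -3.16 and -2.07 at day 8 in cultures 4, 8 and 9, against -6.60, -5.76 and -5.96 at day 3. Its day 8 value in culture 10 was marked as an outlier and left out, and it was not well above background on any day 3 array.

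**Figure D2:**
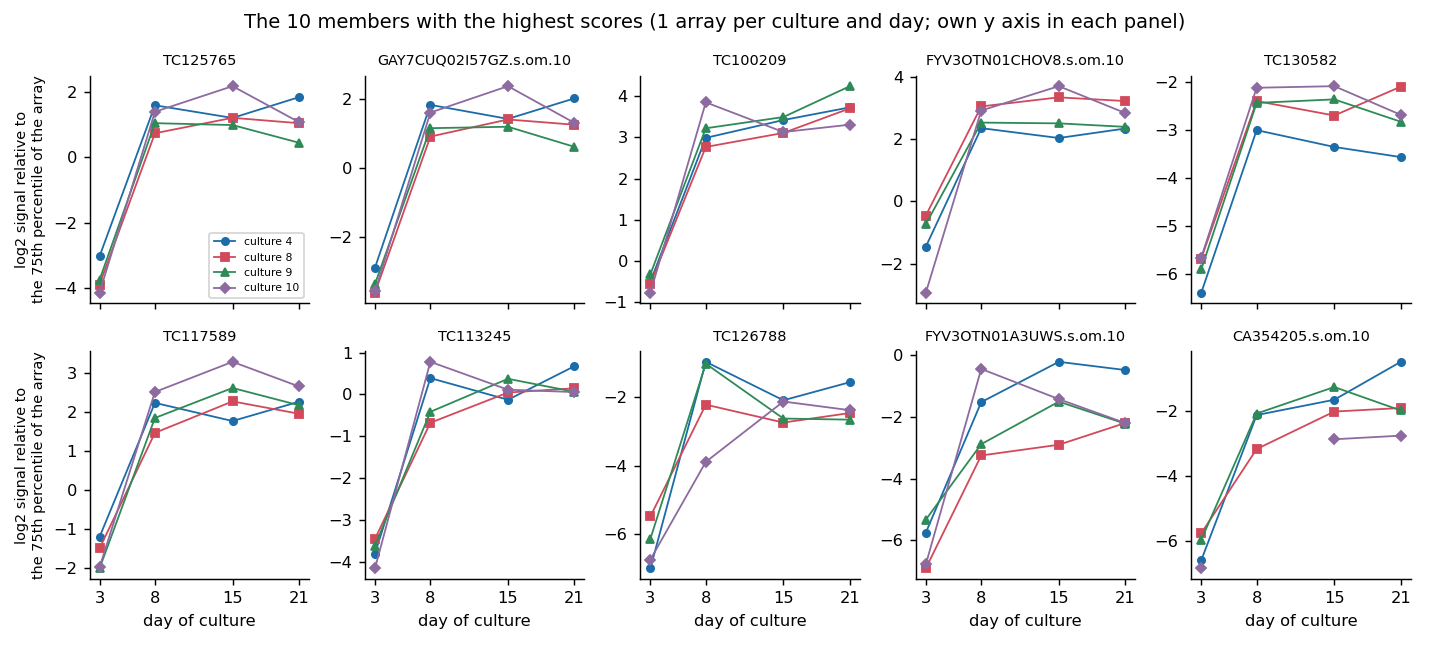
Log2 signal relative to the 75th percentile of the array for the 10 members with the highest scores, by day of culture, with 1 line per culture and its own y axis in each panel. In every panel the day 3 points lie below all later ones, and CA354205 has no day 8 point for culture 10 because its spot was marked as an outlier.

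The minimum scores had a median of 1.42 and reached 4.34. All 200 members were above 1, 84 were above 1.5, 32 above 2, 5 above 3 and 2 above 4. The last members taken were TC125024 (1.057), FZNWKMO01DFSHQ (1.056) and TC107157 (1.054), and the next probes, TC129673 (1.053), F0DLFKL01CQKJB (1.053) and BX868446 (1.049), were not taken. No gap separated them. TC107157 had levels of -1.52, 0.10, 0.66 and 0.33 at day 8 and -2.92, -1.84, -1.69 and -1.60 at day 3 in cultures 4, 8, 9 and 10. TC125024 had 3.87, 3.69, 3.50 and 4.05 at day 8 and 1.55, 2.64, 2.43 and 1.27 at day 3, and FZNWKMO01DFSHQ had 2.06, 2.48, 2.28 and 2.06 at day 8 and -0.33, -0.09, -0.48 and 0.52 at day 3. Each of the last 3 members was still higher at day 8 in every culture, and the culture with the smallest difference was culture 8 for TC125024 and culture 10 for FZNWKMO01DFSHQ.

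The differences to day 3 followed the scores only in part. For the 50 highest scores the median difference between day 8 and day 3 was 3.09, and for the following groups of 50 it was 2.30, 1.89 and 2.02. The limit of the score was set most often by culture 10, which had the lowest score for 74 members, followed by culture 4 with 59, culture 9 with 43 and culture 8 with 24. Culture 8 had the highest score for 81 members. The median score was 1.90 in culture 4, 2.21 in culture 8, 2.07 in culture 9 and 1.75 in culture 10. The score uses the deposited scale. There 54%, 49.7%, 52.9% and 43.2% of all tested probes rose to day 8 in cultures 4, 8, 9 and 10. No share over all eligible probes was computed for the culture with the lowest or highest score, so these counts are a description.

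The flat phase was a property of the means more than of each culture. The choice required a flat mean over 4 cultures, and the later mean, over days 15 and 21, minus day 8 had a median over members of 0.04 in culture 4, 0.22 in culture 8, 0.12 in culture 9 and -0.07 in culture 10. On the deposited scale, which chose the members, these medians were 0.17, 0.31, 0.12 and 0.07, so that the sign in culture 10 turned. With day means over the 4 cultures on the 75th percentile scale, 193 of the 196 members were within 0.5 and 3 were lower than that. In the deposited values, 48 members (24%) were within 0.5 in all 4 cultures, 69 in 3, 52 in 2, 26 in 1 and 5 in none. Among all eligible probes, 44.5% were within 0.5 in all 4 cultures. In the same deposited values, the highest mean of a member fell on day 8 for 41, on day 15 for 73 and on day 21 for 86. By culture, day 21 held the maximum for 105 members in culture 4 and 82 in culture 10, and day 15 for 108 in culture 8 and 116 in culture 9. No share over all probes was computed for the day of the maximum. On this scale 59%, 45%, 42.4% and 52.1% of all tested probes were higher at day 21 than at day 15 in cultures 4, 8, 9 and 10.

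The successive steps after day 8 showed the same difference between cultures. Day 15 minus day 8 had medians of -0.03, 0.27, 0.27 and -0.08 in cultures 4, 8, 9 and 10, and of 0.02, 0.38, 0.27 and 0.05 on the deposited scale, where the signs in cultures 4 and 10 turned. Day 21 minus day 15 had medians of 0.27, -0.15, -0.34 and 0.09. On the 75th percentile scale, the members in cultures 8 and 9 thus tended to be highest at day 15. In culture 4 they tended to be higher at day 21 than at day 15. Against day 8, 114 of 196 members were higher at day 21 in culture 4, where 46% of all tested probes were. On this scale the medians of the successive steps after day 8 over all tested probes lay between -0.06 and 0.06. At an adjusted p below 0.02 and a ratio above 3, 0 of 196 members were called between day 15 and day 8 in limma, where 0.348% of all tested probes were called higher and 0.308% lower. At an unadjusted p below 0.05 there was 1 member higher and 1 lower, where 10.7% and 9.18% of all tested probes were. This contrast overlaps the flat condition and is a description.

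**Figure D3:**
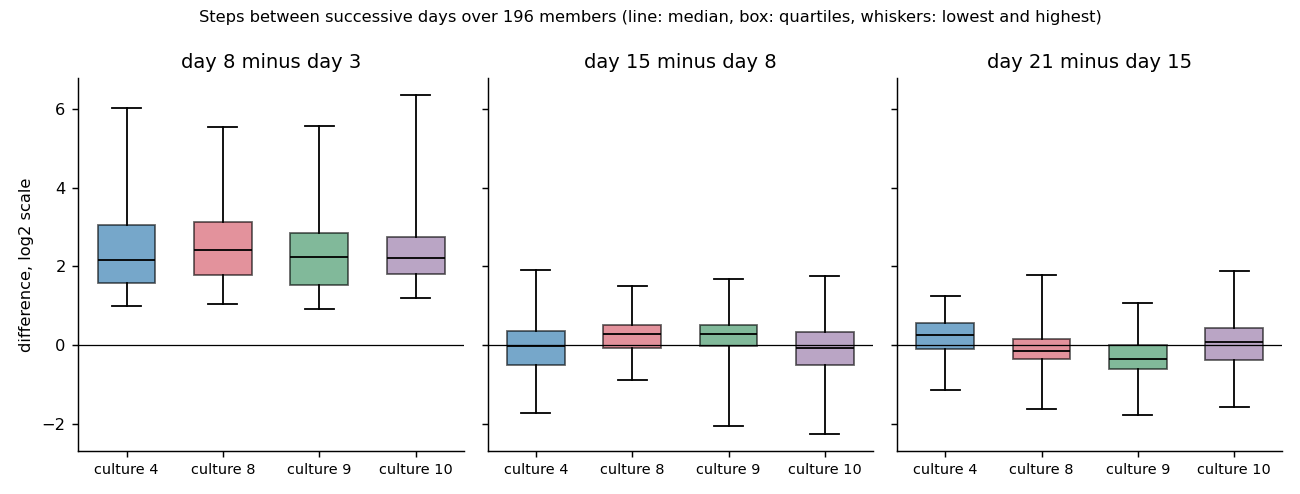
Difference between successive days on the log2 scale over the 196 members, for each culture, with the median as a line, the quartiles as a box and the lowest and highest member as whiskers. The boxes of day 8 minus day 3 lie between 2.18 and 2.43 at their medians, and the medians of the later steps lie between -0.34 and 0.27 with signs that differ between cultures on this scale.

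The choice used the mean of days 21 and 15 and the lowest of the later days, but not the difference between days 21 and 15, which was tested. A low value at either day lowered the score, so the test is not fully independent of the choice. In limma 0 of 196 members were called at an adjusted p below 0.02 and a ratio above 3, and 0 of the 42541 tested probes were, which is a background of 0%. At an unadjusted p below 0.05, 0 members were higher (1.47% of all tested probes) and 3 members, or 1.5%, were lower (2.00% of all tested probes). The lowest adjusted p was 1 among the members and 0.936 over all probes. With culture as a replicate block the lowest adjusted p among the members was 0.622. The median over the members was -0.02, against -0.03 over all tested probes.

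In single cultures, 132 of 196 members were higher at day 21 than at day 15 in culture 4 and 105 in culture 10, but only 69 in culture 8 and 48 in culture 9. Over all tested probes these shares were 48.4% in culture 4, 48.7% in culture 10, 47.9% in culture 8 and 42.5% in culture 9. Few members moved the same way in every culture. There were 9 members higher in each of the 4 cultures (8.03% of all tested probes were) and 8 lower in each (12.0% of all tested probes were). Between days 15 and 8, 15 members were higher in each culture (21.4% of all tested probes) and 10 lower (18.9% of all tested probes).

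Among members well above background on all 16 arrays, the largest positive differences between day 21 and day 15 were those of FP324946, TC100209 and BX320920. FP324946 had levels of 3.26, 2.30, 0.91 and 2.31 at day 21 and of 2.93, 2.13, 0.67 and 1.15 at day 15 in cultures 4, 8, 9 and 10. It was higher in 4 of 4 cultures, by 0.48 ± 0.46 (SD, n = 4), with a limma adjusted p of 1. TC100209, whose levels are given above, was also higher in 4 of 4 cultures, by 0.46 ± 0.26 (limma adjusted p of 1). BX320920 had -0.78, -0.30, 0.27 and 0.07 at day 21 and -1.33, -0.47, 0.29 and -1.05 at day 15, and was higher in 3 of 4 cultures, by 0.46 ± 0.50 (limma adjusted p of 1). In each case the groups of days 21 and 15 overlapped, and none of these differences passed the test.

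Among the same members, those well above background on all 16 arrays, the largest negative differences were those of BX076943, GBPNQUD01B3LAW and FYV3OTN01EIDJL. BX076943 had 0.11, 0.41, -0.82 and -1.09 at day 21 and 0.22, 1.14, 0.95 and -0.70 at day 15, which is a difference of -0.75 ± 0.73 (SD, n = 4; limma adjusted p of 1) and lower in all 4 cultures. Culture 9 had the largest difference of the 4. GBPNQUD01B3LAW had -0.79, 0.76, 0.04 and -0.66 at day 21 and -0.41, 1.48, 1.30 and -0.75 at day 15, a difference of -0.57 ± 0.57. FYV3OTN01EIDJL had 1.86, 2.05, 1.38 and 1.45 at day 21 and 1.51, 2.54, 2.51 and 2.36 at day 15, a difference of -0.54 ± 0.66. Both had a limma adjusted p of 1 and were lower in 3 of 4 cultures. The smallest unadjusted p belonged to the read GBPNQUD02GST32, named after its value was seen, with a difference of -0.47 and lower values in all 4 cultures (unadjusted p of 0.00575 and adjusted p of 1 in limma).

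Most members were already detected at day 3. Of the 200 members, 155 were well above background on all 4 day 3 arrays, and so on all 16 arrays, while 11 were above on 3 of them, 13 on 2, 11 on 1 and 10 on none. Among the eligible probes 96.5% were above background on all 4 day 3 arrays. By culture, 166 members were above background at day 3 in culture 4, 183 in culture 8, 184 in culture 9 and 157 in culture 10. Of all non-control spots on the same arrays, 71.8%, 77.8%, 80.5% and 65.5% were well above background, which is the same order of cultures. The requirement for signal above background applied to days 8, 15 and 21 only, so a member did not have to be detected at day 3.

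**Figure D4:**
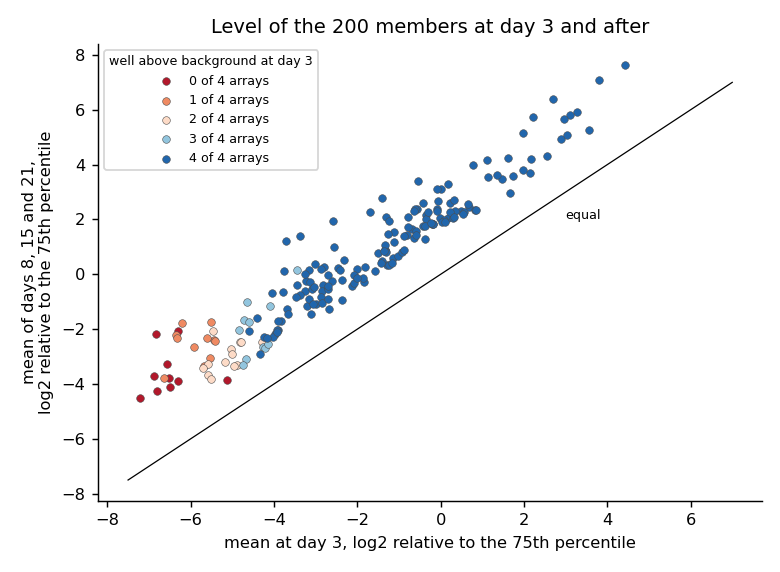
Mean log2 signal of the 3 later days against the mean at day 3 for the 200 members, each relative to the 75th percentile of the array, coloured by the number of day 3 arrays on which the member was well above background. All points lie above the line of equal values, and the 10 members detected on no day 3 array have day 3 means of -7.22 to -5.14.

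For the 10 members not well above background on any day 3 array, the size of the rise is not well measured. The day 8 mean was set against a floor, which for each day 3 array was the higher of the probe's own signal and the lowest signal among probes well above background. This floor is not the detection limit of each probe, so the ratios to it are approximate. The read FZ8DYKY01AI12E was 7.84-fold above the floor at day 8, with measured levels of -1.61, -1.83, -2.90 and -3.11 at day 8, against -5.64, -6.60, -8.15 and -6.96 at day 3. CA354205 was 7.22-fold above its floor. For the other 8 the ratios to the floor lay between 1.68 and 3.68, where the measured ratios lay between 2.84 and 8.60. Over the 153 members that were detected on all 16 arrays and had complete values, the median difference between day 8 and day 3, at 2.22, was close to that of all members, 2.29.

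The members with the strongest signals had day 3 levels that varied more than their later levels. TC119316 had levels of 4.75, 2.94, 4.38 and 5.60 at day 3, 7.64, 7.48, 7.30 and 7.30 at day 8, 6.99, 8.02, 7.83 and 7.75 at day 15 and 7.82, 7.72, 7.54 and 8.32 at day 21 in cultures 4, 8, 9 and 10. The SD between cultures was 0.16 at day 8, against 1.11 at day 3, and its ratio of day 8 to day 3 was 8.07. BX078190 had 4.20, 2.29, 3.68 and 4.99 at day 3, 7.25, 6.89, 6.84 and 6.77 at day 8, 6.25, 7.45, 7.34 and 7.15 at day 15 and 7.21, 7.17, 7.03 and 7.80 at day 21. It showed the same order of cultures at day 3 as TC119316, lowest in culture 8 and highest in culture 10, and a ratio of 8.85. TC121413 had 3.17, 1.15, 2.73 and 3.73 at day 3, 6.81, 5.45, 6.05 and 6.43 at day 8, 6.00, 6.11, 6.64 and 6.79 at day 15 and 6.68, 5.81, 6.48 and 7.39 at day 21, and was again lowest in culture 8 at day 3.

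The other members with strong signals were more even between cultures at day 3. CR943035 had levels of 3.41, 3.20, 3.46 and 3.02 at day 3, 5.54, 5.65, 6.00 and 5.43 at day 8, 5.94, 6.02, 5.91 and 6.14 at day 15 and 6.45, 6.40, 5.65 and 6.02 at day 21. Its rise to day 8 was 2.38 ± 0.18 (SD, n = 4), a ratio of 5.21. FYV3OTN01AUDNX had 2.76, 3.44, 3.52 and 2.67 at day 3, 5.31, 5.55, 5.88 and 6.39 at day 8, 5.25, 6.10, 6.18 and 5.89 at day 15 and 5.81, 6.22, 5.67 and 5.48 at day 21. Its rise to day 8 was 2.69 ± 0.71 (SD, n = 4), and its SD between cultures was 0.47 at day 8 and 0.44 at day 3. In both members, no later array came near the day 3 arrays.

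The spread between cultures had a larger median over the members than over all tested probes at every day. The median SD between cultures was 0.42, 0.47, 0.48 and 0.49 over the members at days 3, 8, 15 and 21, and 0.30, 0.34, 0.30 and 0.35 over all tested probes. The range between cultures of the mean over days 8, 15 and 21 had a median of 0.82 over the members and of 0.59 over all tested probes. It exceeded 2 log2 units for 16 members and was under 0.5 for 37, and no shares over all tested probes were computed for these limits. The smallest range, 0.17, was that of CR943035. The largest, 3.18, was that of TC128017, which had -4.50, -2.46, -1.34 and -1.52 at day 8, against -5.83, -5.80, -4.00 and -3.59 at day 3 in cultures 4, 8, 9 and 10. Culture 4 was the lowest for TC128017 at days 8, 15 and 21, and 2 of the 4 day 3 arrays had a signal of this contig well above background.

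No culture was uniformly high or low. The mean of days 8, 15 and 21 was highest in culture 8 for 73 members, in culture 10 for 53, in culture 4 for 36 and in culture 9 for 34, where the shares over all tested probes were 23.2%, 24.9%, 31.8% and 20%. It was lowest in culture 4 for 71 members, in culture 9 for 51, in culture 10 for 47 and in culture 8 for 27, where the shares over all tested probes were 28.4%, 21.3%, 30.8% and 19.5%. At day 3 culture 8 was lowest for 65 members and highest for 32. Among the members, culture 8 thus was most often the lowest at day 3 and most often the highest afterwards. Both levels entered the score, and no share over all tested probes was computed for day 3, so this is a description.

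Since every culture entered the choice, the rule was also applied to 3 cultures at a time and the probes it gave were followed in the culture it had not used. The lists shared 121 probes with the members when culture 4 was left out, 155 without culture 8, 159 without culture 9 and 93 without culture 10. In the unused culture, the lowest of days 8, 15 and 21 was above day 3 for 187 of the 200 chosen probes in culture 4, 198 in culture 8, 199 in culture 9 and 178 in culture 10. The same held for 36.5%, 38.8%, 37.9% and 28.9% of all probes that met both conditions on the other 3 cultures. The median score in the unused culture was 1.64, 2.12, 1.87 and 1.14, where it was -0.19, -0.18, -0.17 and -0.34 over all probes that met the conditions. In the unused culture the rise was thus seen for most of the chosen probes, least often in culture 10. These lists differ from the 200 members, and probes of 1 array are not independent, so the counts are a description.

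The flat phase was seen less often. In the unused culture the mean of days 15 and 21 was within 0.5 of day 8 for 88 of 200 chosen probes in culture 4, 109 in culture 8, 137 in culture 9 and 101 in culture 10, which is 44%, 54.5%, 68.5% and 50.5%. Of all probes that met the conditions, 71.3%, 79.7%, 81.7% and 71.5% did so. These shares are descriptions, since probes of 1 array are not independent of each other.

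**Figure D5:**
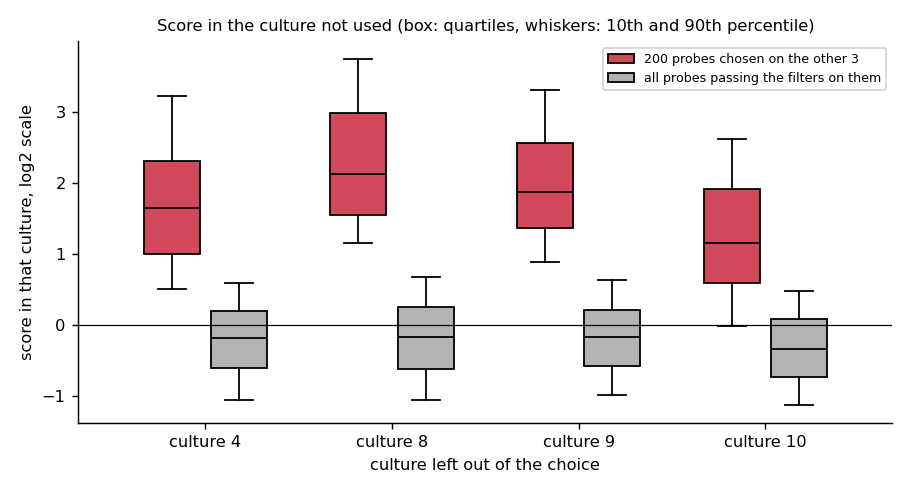
Score (lowest of days 8, 15 and 21 minus day 3, log2 scale) in the culture that was left out, for the 200 probes chosen on the other 3 cultures (red) and for all probes that met both conditions on those 3 cultures (grey), with medians as lines, quartiles as boxes and the 10th and 90th percentiles as whiskers. The red medians are 1.64, 2.12, 1.87 and 1.14 and the grey ones -0.19, -0.18, -0.17 and -0.34.

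Some members followed each other from array to array beyond the shared step. The deviations of each member from its own day means were correlated over the 16 arrays, for 196 members and 19110 pairs. The median correlation was 0.06, and 37 pairs had a correlation above 0.95. These pairs linked 44 members into 16 groups, 11 of 2 members and 5 larger, and 152 members stood alone, so that the members form 168 separate units by this measure. Arrays are shared by all pairs, and whether the probes of a group measure the same transcript was not tested. The share of such pairs over all tested probes was not computed, so these counts are a description and nothing particular to the members is read from them.

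The 16 groups were formed after their values were seen. The largest held 8 members, among them TC120656 and the read F0DLFKL02HLISX, whose deviations had a correlation of 0.997. TC120656 had levels of 0.79, 0.35, 0.32 and 1.69 at day 3, 3.46, 4.01, 3.91 and 3.51 at day 8, 3.74, 4.60, 4.64 and 3.97 at day 15 and 4.52, 4.21, 3.94 and 3.31 at day 21 in cultures 4, 8, 9 and 10. Culture 10 started highest and ended lowest. The median difference of the 8 members between day 8 and day 3 was 2.41, 2.84, 2.75 and 1.58 in the 4 cultures.

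Another group joined BX078190, TC119316 and the read GAY7CUQ01AUU9Y, with median day 3 levels of 4.20, 2.29, 3.68 and 4.99 and median differences between day 8 and day 3 of 3.04, 4.57, 3.16 and 1.78 in cultures 4, 8, 9 and 10. The difference was largest where the day 3 level, which it contains, was lowest. TC125765 and GAY7CUQ02I57GZ, the members with the highest scores, formed a pair with a correlation of 0.982. A group of 4 reads that includes FZ8DYKY01BTWTD divided the cultures, with median levels over days 8, 15 and 21 of 0.13 and 0.22 in cultures 4 and 8, and of -1.50 and -1.24 in cultures 9 and 10. FZ8DYKY01BTWTD itself had 0.87, 0.38, -1.36 and -2.50 at day 8, against -3.63, -4.26, -4.32 and -3.97 at day 3. TC101509 and TC127137, with a correlation of 0.993, were highest in culture 4, where the median of their later levels was 2.89, against 0.59 to 1.48 in the other cultures.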

How the data were processed

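RNA of 4 cultures at days 3, 8, 15 and 21 was labelled with Cy3 and hybridised to 16 one-colour Agilent arrays. The authors extracted spot intensities with Feature Extraction 10.7.3.1, per the labels, with subtraction of background, and deposited these intensities. The authors also deposited a log2 table, in which 98.4% to 98.5% of probes per array differed from log2 of the processed signal by 1 constant within 0.001, with equal array medians. The choice of members used this deposited log2 table. Levels in the text are log2 processed signal after division by the array's 75th percentile (518.1 to 881.4 units of signal), once control and outlier spots (6 to 272 per array) were left out and spots of 1 probe averaged. A probe absent on 1 or more arrays through outlier marks was not tested (1050 probes).

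Day means were fitted with limma 3.58.1 in R 4.3.3 over the 42541 probes that exceeded background clearly on all 4 arrays of any 1 day, with no term for culture. Calls needed both a ratio above 3 and, after Benjamini-Hochberg adjustment, a p below 0.02, and all contrasts share the day means. The study set the same numbers for an ANOVA over the days and an average fold change, and its methods name no adjustment of p. Same-numbered arrays come from 1 pool of fish, so culture pairs them. Deviations from day means correlated by 0.482 to 0.697 between days 15 and 21 and by -0.14 to 0.391 between days 3 and 8, across probes. Members named in the text are those with the 10 highest scores, the 3 probes on each side of the limit of the choice, the 3 largest differences each way between days 21 and 15 among members detected on all 16 arrays, and the 5 strongest signals. The members and lists were chosen with earlier results of these data known. The fits were tested on simulated data. Summaries and figures used Python 3.11.15, pandas 2.3.3 and matplotlib 3.10.9.

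The alternatives were the deposited values, normexp with an offset of 50, quantile normalization, another percentile, other filters on dim probes, culture or slide as a block, the test over days that the methods name, other flat limits and leaving out each culture. Restricting the choice to probes free of outlier marks, ranking by the mean score, restricting the medians to members detected on all arrays and values within a slide were added after the data were seen.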

Additional observations from a re-analysis of the deposited data

Results flagged for a closer look

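For the members named in the report and for the medians over members, the sample farthest from the others was compared with the range of its group of 4 cultures, and 5 of 98 groups had a gap beyond Dixon's 95% limit, where chance gives about 1 in 20. In culture 4, TC113245 had a level of 0.675 at day 21, where the other cultures had 0.0562 to 0.147. FYV3OTN01A3UWS had -0.478 at day 21 in culture 4, where the others had -2.22 to -2.20. BX320920 had -1.78 at day 8 in culture 4, where the others had -0.21 to -0.0577. FYV3OTN01EIDJL had 1.51 at day 15 in culture 4, where the others had 2.36 to 2.54. The median over the members at day 8 was 0.24 in culture 9, where the others had 0.45 to 0.47. On this 75th percentile scale, day 8 minus day 3 over all tested probes had a median of -0.13 in culture 9. It was between -0.01 and 0 in the other cultures. On the deposited scale, which was not compared with Dixon's limit, the day 8 medians were 9.77, 9.80, 9.61 and 9.81 in cultures 4, 8, 9 and 10. In culture 4, 105 of the 200 members had their maximum at day 21 in the deposited values, TC113245 among them, and no share over all probes was computed. FYV3OTN01A3UWS was higher there at day 15 (-0.21) than at day 21.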

How the results depend on the processing

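Of 116 recomputed values of counts, medians and list sizes, 99 stayed within the limit for a change, and 17 moved. The limit was a fixed ratio for counts and list sizes. For medians it was the SD between cultures, 0.268 for day 21 minus day 15. The 99 include counts that were 0 in every fit, those of members in both later contrasts and of all probes between days 21 and 15. Such counts had little room to move. Direction was not part of these limits, and the median of day 21 minus day 15 changed sign between settings. With normexp background correction, 400 probes and 112 members were called higher at day 8 than at day 3, against 797 and 170, the median difference of the members was 1.77 against 2.29, 151 probes differed between days 15 and 8 against 279, and 131 members were kept. Leaving out 1 culture gave 401 to 805 probes and 125 to 161 members higher at day 8 (401 probes without culture 8, 471 without culture 9), and 12 to 405 probes different between days 15 and 8 (110 without culture 4, 17 without culture 8, 12 without culture 9). The count between days 15 and 8 was 185 for probes detected on all 16 arrays. With culture as a replicate block, the paired analysis called 541 probes between days 15 and 8, 998 probes and 175 members higher at day 8, and 0 members in the later contrasts, which also gave 0 in every other fit. Within slide 1 the median difference between day 8 and day 3 was 2.14. The median of day 21 minus day 15 lay between -0.09 and 0.06 over both slides, at -0.19 within slide 1 and at 0.09 within slide 2, and has no settled sign.

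Of the 200 members, 102 were kept with a flat limit of 0.25, 121 with a limit of 1, 93 to 159 when 1 culture was left out, 168 on the 75th percentile scale, 156 after quantile normalization, 155 when detection at day 3 was also asked for, 138 by the mean score and 196 among probes free of outlier marks. With a ratio above 3 between days, limma's F-test called 187 of 196 members, and the test over days that the methods name called 188 unadjusted and 179 after Benjamini-Hochberg adjustment. These tests include the contrast that chose the members, and no share over all tested probes was computed. Nothing is read from these counts. Members dim at day 3 have imprecise differences, and 4 cultures limit all tests. No member has a gene name here.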
